A study of Mus musculus with 8 samples.

Results

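Contractile genes of smooth muscle and other target genes of serum response factor (SRF) were examined in primary skin fibroblasts of 12-month-old mice of 2 conplastic strains. The set held 38 genes, 32 of which had a probe on the array, with 54 probes in all among 25697 probes and 18138 gene symbols. Of these, 26 genes with 40 probes were bright enough to be tested, among 10414 tested probes of 8003 genes. The genes were selected on their known roles and with the difference between the strains on these same arrays in view, so that every comparison of the strains for them is given as a description and carries no test. No value was obtained here for Actg1, Cnn3, Filip1l, Myl9, Ppp1r12a and Tagln2, which had no probe under their symbol and are not analysed here.

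Nd2-mutant fibroblasts came from 4 mice of strain C57BL/6J-mtALR/LtJ, of which mice 28 and 32 were males and the other pair, 34 and 35, females. Control fibroblasts came from 4 mice of strain C57BL/6J-mtAKR/J, with 16 and 17 as males against 15 and 37 as females. Both strains carry the nuclear genome of C57BL/6J and differ in their mitochondrial genome, which was taken over from the donor strains ALR/LtJ and AKR/J by repeated backcrossing. The mutation of the first strain exchanges a leucine for a methionine in Nd2, a subunit of respiratory complex I that is encoded in the mitochondrial DNA. The cells of each mouse were cultured to the first passage in medium with serum, no treatment being named in the labels, and their RNA was hybridised to 1 array (Illumina MouseRef-8 v2.0). Neither strain is plain C57BL/6J, since the controls carry a donor mitochondrial genome too.

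All 10 markers of dermal fibroblasts that were looked up, among them Col1a1, Pdgfra and Thy1, were detected on 8 of 8 arrays, with a summed intensity of 36216 to 41499 in Nd2-mutant and 30185 to 44436 in control mice. Of 9 markers that are restricted to smooth muscle, 2 (Myh11 and Lmod1) were detected on 8 of 8 arrays and 3 (Cnn1, Synpo2 and Hhip) on none. Of the 13 tested probes of the fibroblast markers, 9 were higher and 4 lower in the Nd2-mutant mean (median 0.30; 0 at an adjusted and 4 at an unadjusted p under 0.05 in limma, where 7.63% of all tested probes had an unadjusted p under 0.05). The strains did not overlap for Lum (0.88, SE 0.31), Dcn ILMN_2596346 (0.82, SE 0.28) and Twist1 (0.44, SE 0.16), all higher in Nd2-mutant mice (2.24% of all tested probes were higher without overlap). They were thus opposite in sign to most of the set, and their part in its values was not tested. The marker list was written with earlier results of these arrays known, so that its counts for strain describe and do not test. The brighter Dcn probe, ILMN_2747959, differed by 0.12 (SE 0.24), and its strains overlapped. The array of control mouse 15 stood apart from the others, with a mean correlation of 0.934 against 0.963 to 0.974 for the other arrays. It held the lowest value of the 8 mice for 31.4% and the highest for 26.5% of all tested probes, and values without it are given for the probes it moves most.

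SRF is a transcription factor that binds a short DNA element, the CArG box, and switches on genes of the cytoskeleton and immediate early genes. Which of these it activates depends on its partners. Myocardin and the related MRTF proteins (encoded by Mkl1 and Mkl2) drive the contractile genes, and MRTFs are held in the cytoplasm by monomeric actin until it is assembled into filaments. Fibroblasts on stiff culture plastic take on part of the contractile programme, with Acta2 (smooth muscle alpha-actin) in stress fibres as its usual marker.

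The CArG box was looked up in the promoters of the set, since it is the element that SRF binds. Windows of 300 bases (250 before to 50 after the transcription start, RefSeq sequences of mouse build GRCm38.p6) were found for 32 of the 38 genes. A CArG box of the canonical form, which has CC and GG around 6 bases that are each A or T and was searched on both strands (its reverse complement is of the same form), lay in the windows of 8 of these 32 genes (25%). The same box lay in the windows of 488 of 27025 genes in all (1.81%), and the share of all windows was 1.63%. The set was named beforehand for SRF targets among others, so that its higher share is a description and no test. The absence of this form from a window says only that these letters are not in it. The 5 genes with a box that were also tested are shown, 5′ to 3′ on the strand of the gene, with the box in capitals.
Srf (chr17:46556205-46556274, minus strand): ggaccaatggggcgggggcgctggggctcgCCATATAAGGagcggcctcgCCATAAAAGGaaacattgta
Fhl1 (chrX:56779551-56779620, plus strand): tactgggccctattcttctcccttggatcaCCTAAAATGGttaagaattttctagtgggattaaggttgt
Cnn2 (chr10:79988514-79988583, plus strand): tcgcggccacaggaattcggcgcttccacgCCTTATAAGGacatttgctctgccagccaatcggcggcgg
Vcl (chr14:20929148-20929210, plus strand): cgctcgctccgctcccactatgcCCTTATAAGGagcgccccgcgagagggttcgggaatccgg
Fhl2 (chr1:43163962-43164022, minus strand): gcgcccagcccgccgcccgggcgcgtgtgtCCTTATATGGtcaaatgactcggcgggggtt
The boxes of Srf, SRF's own gene, began 82 and 62 bases before its transcription start, that of Fhl1 102 bases, that of Cnn2 56 bases, that of Vcl 227 bases and that of Fhl2 31 bases before theirs. Fhl2 had another box in the window of an alternative start, 96 bases before it. The other 3 genes with a box, Myl9, Actg1 and Filip1l, had no probe.

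Across the set, 30 of 40 tested probes were lower and 10 higher in Nd2-mutant than in control fibroblasts, beside 49.8% of all tested probes with a difference below 0. The differences were taken on log2(intensity + 16), Nd2 mutant minus control, and their median was -0.17 over the 40 probes and 0.00 over all tested probes. The 3 lowest differences were those of Actg2 (-1.22), Fhl1 ILMN_2713285 (-1.11) and Myh11 (-1.06), and the 3 highest those of Actb ILMN_2617433 (0.72), Acta2 ILMN_2710354 (0.33) and Cnn2 ILMN_2596369 (0.26). This Cnn2 probe was detected on 3 of 4 control arrays and thus entered the test through the Nd2-mutant mice, where it had to be high. Counted with limma over all probes, 0 probes passed an adjusted p of 0.05 for strain (0.0% of those tested). At an unadjusted p under 0.05 there were 7 probes of the set that were lower (3.13% of all probes) and 0 that were higher (4.5% of all probes). The values of the strains did not overlap for 2 probes, both of Fhl1 and both lower (2.13% of all probes), and for 0 higher probes (2.24% of all probes). Since the set was chosen with this comparison known, these counts were not read further. Where a bulk culture has less of a transcript, fewer expressing cells and less RNA per cell cannot be told apart.

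**Figure D1:**
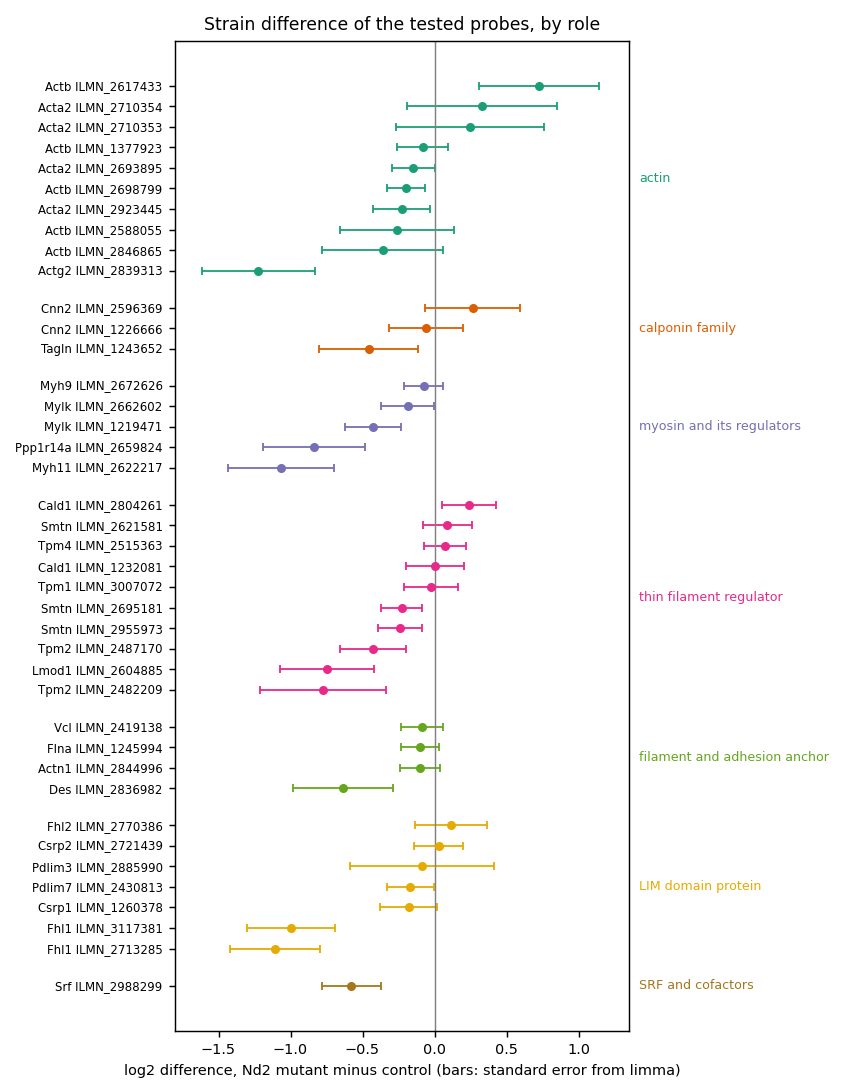
Log2 difference between Nd2-mutant and control fibroblasts (x axis) for the 40 tested probes, grouped by the role of the gene; bars are the standard error from limma, with 4 mice per strain. The probes of Actg2, Myh11 and Fhl1 lie lowest, most of the other probes lie within 0.5 of 0, and the highest value is that of Actb ILMN_2617433 at 0.72.

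Summarised by mouse, the median deviation of the 40 probes from their mean over the 8 mice was -0.12, 0.03, -0.06 and -0.25 (log2) in Nd2-mutant mice 28, 32, 34 and 35, and 0.05, 0.19, -0.00 and 0.26 in control mice 15, 16, 17 and 37. The strains overlapped in this measure, because control mouse 17 lay below Nd2-mutant mouse 32. Nd2-mutant mouse 35 had the lowest value of the 8 mice for 12 of the 40 probes (9.55% of all tested probes), and control mouse 37 the highest for 14 (9.52% of all tested probes). Control mouse 15 had the lowest value for 10 probes (31.4% of all tested probes) and the highest for 12 (26.5% of all tested probes). Without mouse 15, 33 of 40 probes were lower in the Nd2-mutant mice, a count that was not set beside that of all tested probes.

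**Figure D2:**
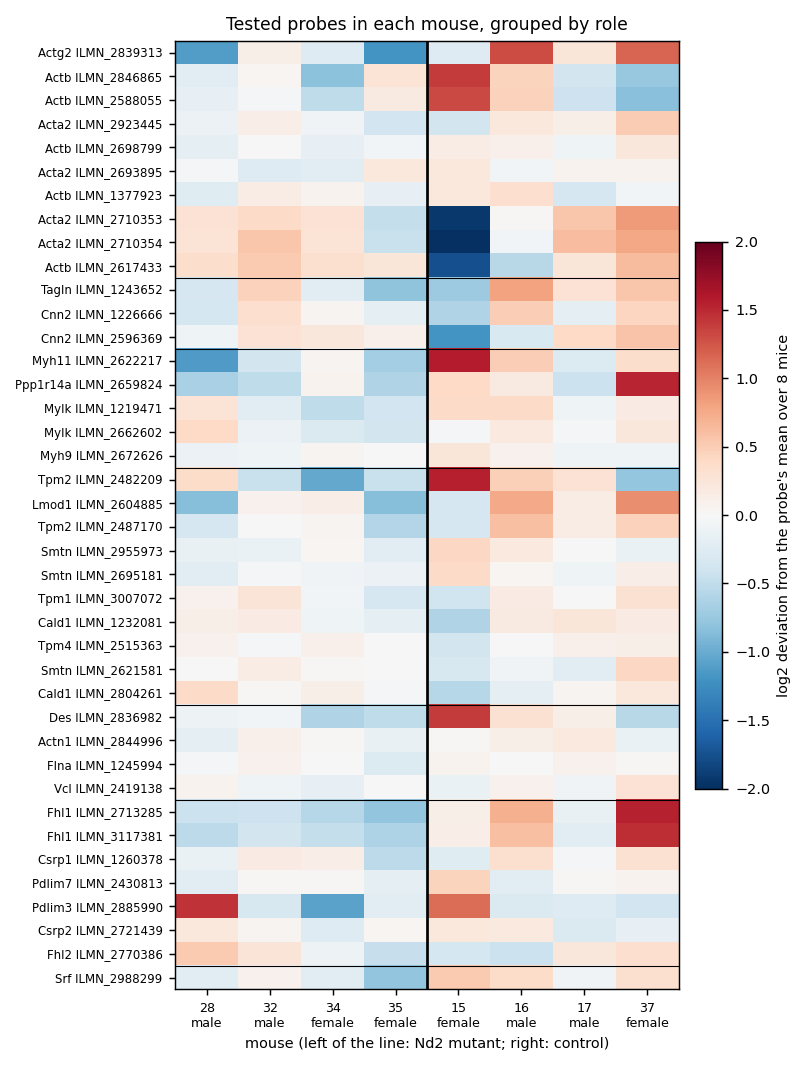
Log2 deviation of each tested probe (rows, grouped by role) from its mean over the 8 mice, for each mouse (columns, Nd2 mutant left of the line and control right of it). Control mice 16 and 37 are mostly above the mean and Nd2-mutant mouse 35 mostly below it, while control mouse 15 holds both extremes.

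In the following, intensities are normalised values on the linear scale and are listed in the order of mice 28, 32, 34 and 35 for the Nd2-mutant strain and of mice 15, 16, 17 and 37 for the control strain. Folds are those of the log2(intensity + 16) scale, which understates the fold of dim probes.

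Among the actins, Actg2, the gamma-actin of visceral smooth muscle, differed most. Its probe (ILMN_2839313, chromosome 6) had intensities of 794, 1875, 1456 and 752 in the Nd2-mutant mice and 1452, 4299, 2048 and 3911 in the control mice. The only overlap was control mouse 15, which lay below the Nd2-mutant mice 32 and 34 in this gene. The log2 difference was -1.22 (SE 0.39), or 2.33-fold lower in Nd2-mutant fibroblasts, and -1.51 without mouse 15. When each mouse was left out in turn, it ranged from -1.51 to -0.99.

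Acta2, the actin that marks myofibroblasts and vascular smooth muscle, gave no single direction, because its 4 probes differed from each other. ILMN_2693895 had intensities of 11761, 10063, 10372 and 13935 in the Nd2-mutant mice and 13935, 11596, 12618 and 12618 in the control mice, with a log2 difference of -0.15 (SE 0.15). Its value in mice 35 and 15 was the highest intensity of the whole table. ILMN_2923445 had intensities of 6719, 8033, 6942 and 5591 in the Nd2-mutant mice and 5649, 8476, 7962 and 10372 in the control mice, with a difference of -0.23 (SE 0.20) that became -0.39 without mouse 15. For both of these brighter probes the strains overlapped.

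The other Acta2 probes were higher in the Nd2-mutant mean, and this rested on a single array. ILMN_2710354 measured 3803, 4638, 3813 and 2307 in the Nd2-mutant mice and 779.7, 3022, 4811 and 5393 in the control mice. ILMN_2710353 measured 2574, 2754, 2579 and 1497 in the Nd2-mutant mice and 539.7, 2136, 3091 and 3813 in the control mice. In both, control mouse 15 had by far the lowest value, and the differences of 0.33 (SE 0.52) and 0.25 (SE 0.51) turned to -0.28 and -0.36 when it was left out. Over the 8 mice, the log2 values of these probes correlated with each other (r = 0.996) but ran against those of ILMN_2693895 (r = -0.574 and -0.550, and -0.355 and -0.292 without mouse 15). Without that mouse all 4 probes of Acta2 were lower in the Nd2-mutant mean.

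Actb, the cytoplasmic beta-actin that is often used as a reference gene, showed the same disagreement of probes. ILMN_2698799 (8033, 9261, 8168 and 8855 in the Nd2-mutant mice and 10223, 9799, 8693 and 10747 in the control mice) and ILMN_1377923 (7364, 9699, 9182 and 7799 in the Nd2-mutant mice and 10114, 11027, 6889 and 8386 in the control mice) were the bright ones and differed by -0.20 (SE 0.13) and -0.08 (SE 0.18). ILMN_2617433, with 940.1, 1060.3, 914 and 866 in the Nd2-mutant and 204, 493, 861 and 1135 in the control mice, gave the highest difference of the set, 0.72 (SE 0.42), and 0.26 without mouse 15. The dim probes ILMN_2588055 (41.0, 46.7, 28.7 and 56.2 in the Nd2-mutant mice and 142, 71.8, 31.7 and 19.7 in the control mice) and ILMN_2846865 (48.8, 60.7, 26.5 and 74.2 in the Nd2-mutant mice and 182, 85.7, 41.8 and 28.5 in the control mice) moved the other way in mouse 15, with differences of -0.26 (SE 0.40) and -0.36 (SE 0.42) that became 0.13 and 0.05 without it. ILMN_2617433 correlated with these dim probes at r = -0.908 and -0.877 over the 8 mice. For all 5 probes the strains overlapped.

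**Figure D3:**
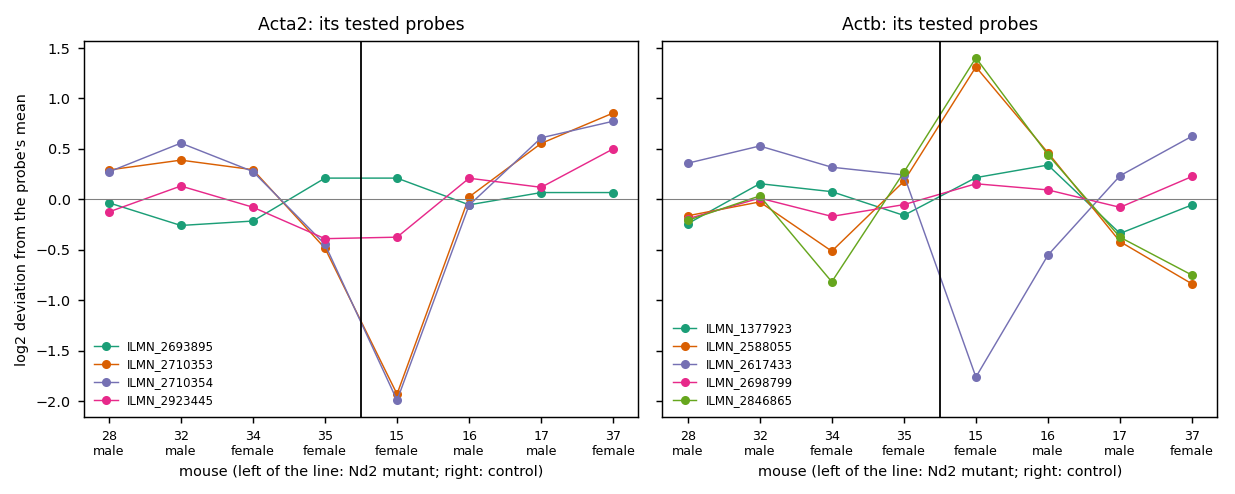
Log2 deviation of each tested probe of Acta2 (left, 4 probes) and Actb (right, 5 probes) from its mean, for each mouse (x axis; Nd2 mutant left of the line, control right of it). The probes of a gene separate most in control mouse 15, where 2 Acta2 probes and 1 Actb probe are at their lowest and 2 Actb probes at their highest.

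In the calponin family, which binds actin filaments, only Tagln and Cnn2 could be tested. Tagln (SM22-alpha, an early smooth muscle marker; ILMN_1243652) had intensities of 495, 870.2, 539 and 353 in the Nd2-mutant mice and 374, 1112, 769.5 and 933 in the control mice. Its values overlapped, since mouse 32 exceeded control mice 15 and 17, and mouse 15 was nearly as low as the lowest Nd2-mutant mouse. The log2 difference was -0.46 (SE 0.34), and -0.78 without mouse 15. Cnn2, the calponin of non-muscle cells, differed by -0.06 (SE 0.26; ILMN_1226666) and 0.26 (SE 0.33; ILMN_2596369) in its 2 probes, and the latter became -0.09 without mouse 15. ILMN_2596369 was detected on 4 of 4 Nd2-mutant and 3 of 4 control arrays, and thus entered the test through the Nd2-mutant mice. Cnn1, the smooth muscle calponin, was detected on 0 of 8 arrays.

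All 5 tested probes for myosin and its regulators were lower in the Nd2-mutant mean, with a median of -0.42. Myh11, the myosin heavy chain that defines differentiated smooth muscle, was dim (ILMN_2622217, chromosome 16), with intensities of 21.4, 47.3, 69.6 and 35.1 in the Nd2-mutant and 227, 99.0, 51.9 and 88.5 in the control mice. Mouse 15 was the highest and mouse 28 the lowest, and control mouse 17 lay within the Nd2-mutant range. The log2 difference was -1.06 (SE 0.37), -0.72 without mouse 15, and moved from -1.32 with 1 added before the log2 to -0.76 with 50 added. Myh9, the non-muscle myosin that powers stress fibres, differed by -0.07 (SE 0.13).

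Ppp1r14a encodes CPI-17, a smooth muscle inhibitor of the phosphatase that relaxes myosin. Its tested probe (ILMN_2659824, chromosome 7) had intensities of 9.14, 11.9, 25.8 and 10.2 in the Nd2-mutant mice and 36.3, 28.7, 13.5 and 98.0 in the control mice. It was detected on 2 of 4 Nd2-mutant and 4 of 4 control arrays, and thus entered the test through the controls, where it had to be high. Its difference was -0.84 (SE 0.35), with mouse 37 as the highest and control mouse 17 inside the Nd2-mutant range. The difference ranged from -1.12 to -0.47 with each mouse left out, and was -1.34 or -0.48 with 1 or 50 added before the log2. An untested second probe, ILMN_2729363, was detected on 1 Nd2-mutant and 3 control arrays. Mylk, the kinase that starts contraction by phosphorylating the myosin light chain, had 2 tested probes. Intensities were 614, 431, 351 and 384 in the Nd2-mutant mice and 667, 662, 477 and 572 in the control mice for ILMN_1219471. For ILMN_2662602 they were 297, 205, 179 and 169.6 in the Nd2-mutant mice and 218, 258, 219 and 264 in the control mice. The differences were -0.42 (SE 0.19) and -0.19 (SE 0.18), and in both probes mouse 28 stood above the other Nd2-mutant mice.

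Of 10 probes for regulators of the thin filament, 6 were lower and 4 higher. Lmod1, leiomodin, which nucleates actin filaments in smooth muscle (ILMN_2604885, chromosome 1), had intensities of 15.8, 45.3, 47.3 and 15.8 in the Nd2-mutant and 29.6, 81.2, 48.0 and 93.3 in the control mice. Only mouse 15 put the controls into the Nd2-mutant range, and the difference of -0.74 (SE 0.33) became -0.98 without it. This probe was dim, and with 1 or 50 added before the log2 the difference was -1.05 or -0.47. Smtn, smoothelin, differed little, by -0.23 (SE 0.14), -0.24 (SE 0.15) and 0.09 (SE 0.17) in 3 probes, and by -0.14, -0.14 and -0.00 without mouse 15. The brightest of these, ILMN_2695181, measured 499, 571, 562 and 545 in the Nd2-mutant and 773, 606, 552 and 646 in the control mice. ILMN_2955973 measured 341, 343, 389 and 319.6 in the Nd2-mutant mice and 509.5, 436, 378 and 344 in the control mice, and ILMN_2621581 measured 36.6, 42.4, 37.8 and 36.96 in the Nd2-mutant mice and 26.5, 34.5, 29.6 and 54.2 in the control mice. The strains overlapped in all 3 probes.

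The tropomyosins, which lie along the actin filament and gate the access of myosin, differed from each other. Tpm2, the beta-tropomyosin, had intensities of 1614, 2035, 2110.3 and 1354 in the Nd2-mutant and 1601, 3082, 2244 and 2796 in the control mice with its bright probe ILMN_2487170. These differed by -0.43 (SE 0.23), and by -0.61 without mouse 15. The dim Tpm2 probe ILMN_2482209 had 87.6, 42.8, 23.4 and 42.8 in the Nd2-mutant mice and 219.8, 95.5, 81.8 and 30.9 in the control mice, with a difference of -0.77 (SE 0.44) that was -0.38 without mouse 15. The order of the mice was not the same in both probes, since mouse 15 was the highest of all in the dim one and the lowest control in the bright one (r = -0.201 over 8 mice, and 0.087 without mouse 15). Tpm1 and Tpm4 differed by -0.03 (SE 0.19) and 0.07 (SE 0.15), and caldesmon (Cald1), which restrains actomyosin, by 0.00 (SE 0.20) and 0.24 (SE 0.19), which became -0.20 and 0.09 without mouse 15, and Tpm1 and Tpm4 became -0.16 and -0.04.

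**Figure D4:**
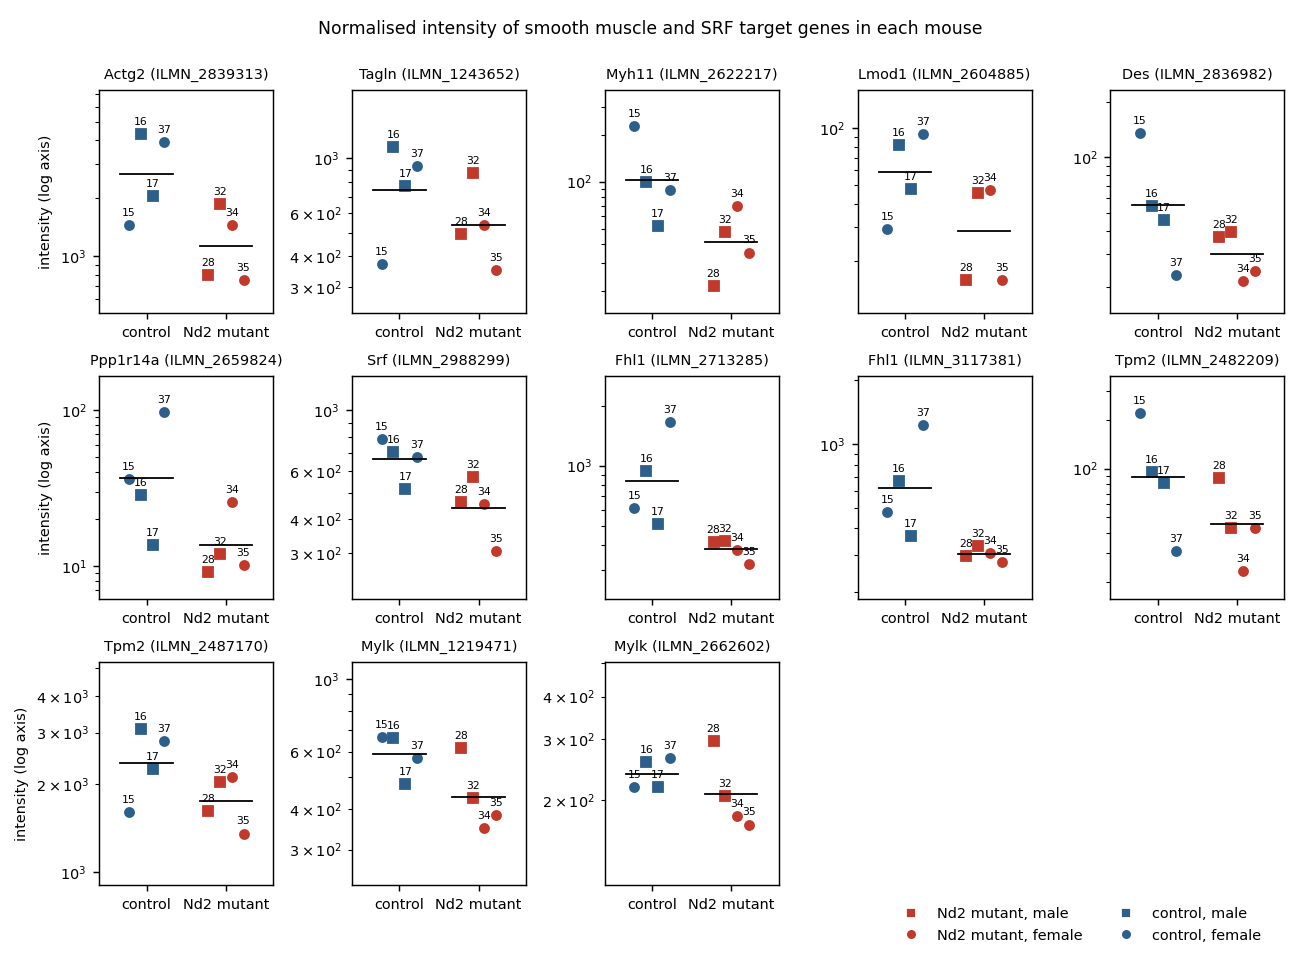
Normalised intensity (y axis, log scale) of 13 probes in each mouse, numbered by mouse, with squares for males, circles for females and a line at the mean of log2(intensity + 16) turned back into an intensity. The Nd2-mutant mice lie below all control mice only for the probes of Fhl1, while mouse 15 alone brings the strains to overlap in Actg2, Lmod1 and the bright Tpm2 probe.

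Proteins that anchor filaments were nearly level, apart from desmin. Des, the intermediate filament protein of muscle and of pericytes (ILMN_2836982, chromosome 1), measured 37.1, 39.3, 21.5 and 24.3 in the Nd2-mutant and 136, 54.4, 45.8 and 23.1 in the control mice. The difference was -0.63 (SE 0.35) and -0.27 without mouse 15, whose value was the highest of the 8. Vcl, Flna and Actn1, which encode vinculin, filamin A and alpha-actinin 1 of focal adhesions and stress fibres, differed by -0.09, -0.10 and -0.10 with standard errors of 0.14, 0.13 and 0.14. Synpo2, a Z-disc and stress fibre protein, was detected on 0 of 8 arrays, and Kcnmb1, a subunit of the potassium channel that relaxes smooth muscle, on 1 Nd2-mutant and 2 control arrays.

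Fhl1 was the member whose strains were separate. This LIM protein of muscle, encoded on the X chromosome, carries the box shown above in its promoter window. Its probe ILMN_2713285 measured 414, 419.6, 375 and 319 in the Nd2-mutant mice and 611, 937, 509 and 1663 in the control mice. ILMN_3117381 measured 295, 330.3, 305 and 277 in the Nd2-mutant mice and 475, 667, 367 and 1234 in the control mice. In both probes the Nd2-mutant mice lay close together below every control mouse, and the spread was in the controls, with mouse 37 the highest and mouse 17 the lowest. The differences were -1.11 (SE 0.31) and -0.996 (SE 0.31), or 2.15-fold and 1.99-fold lower, and over the mice left out in turn they ranged from -1.34 to -0.78 and from -1.24 to -0.67.

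The other LIM genes did not share this difference in size. Fhl2, which binds SRF cofactors, differed by 0.11 (SE 0.25), Csrp1 and Csrp2, cysteine-rich proteins of smooth muscle, by -0.18 (SE 0.20) and 0.03 (SE 0.17), and the filament-bound Pdlim7 by -0.17 (SE 0.16; -0.05 without mouse 15). Pdlim3, a Z-disc protein, averaged -0.09 (SE 0.50; 0.27 without mouse 15) with 176, 40.1, 17.2 and 44.0 in the Nd2-mutant and 136, 41.1, 42.8 and 37.8 in the control mice. Mice 28 and 15, 1 of each strain, were the high ones.

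Srf itself was lower in the Nd2-mutant mean. Its tested probe (ILMN_2988299, chromosome 17) had intensities of 461, 570.5, 456 and 306 in the Nd2-mutant and 784, 702, 514 and 675 in the control mice. The strains overlapped only in that Nd2-mutant mouse 32 exceeded control mouse 17, and mouse 35 was the lowest. The difference was -0.58 (SE 0.20), 1.49-fold lower, and ranged from -0.70 to -0.41 with each mouse left out. An untested second Srf probe, ILMN_1242533, was detected on 1 Nd2-mutant and 1 control array. Its mean intensities, 8.67 in the Nd2-mutant and 6.29 in the control mice, lay close to the background and went the other way. The cofactor genes could not be followed: Mkl1 was detected on 0 of 8 arrays, Mkl2 on 1 of 8 by 1 of its 3 probes, and Myocd on 2 of 8 by 1 of its 3 probes.

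Without mouse 15, the strains did not overlap for 5 probes of the set, all lower in Nd2-mutant mice (4.2% of all tested probes were lower without overlap in this comparison of 4 against 3 mice), and for 0 higher ones (3.73% of all probes). These were the 2 Fhl1 probes, Actg2, Lmod1 and the bright Tpm2 probe. The probes lower at an unadjusted p under 0.05 were then 9 (3.59% of all probes), with Acta2 ILMN_2923445, Tagln and Tpm2 added and Ppp1r14a no longer among them. Since mouse 15 was left out for its distance over the whole array, this again describes and does not test.

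The sex of the mice played no part in the choice of the set and was tested. With strain as a term, 0 of 40 probes differed between males and females at an adjusted p under 0.05 in limma, beside 0.0192% of all probes. At an unadjusted p under 0.05 there was 1 of 40, beside 8.31% of all probes. This was Ppp1r14a, at a log2 difference of -0.70 (SE 0.29, male minus female; adjusted p = 0.578 in limma), with intensities in males of 9.14 and 11.9 (Nd2 mutant) and 28.7 and 13.5 (control), and in females of 25.8 and 10.2 (Nd2 mutant) and 36.3 and 98.0 (control). The sexes overlapped. 25 probes were higher and 15 lower in males, with a median of 0.11 over the set and 0.01 over all tested probes. The extremes were Ppp1r14a and Acta2 ILMN_2710354 at 0.69 (SE 0.50), and Tagln and Myh11 stood at 0.60 (SE 0.30) and -0.65 (SE 0.32). Differences of this size were not resolved with 4 mice of each sex.

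Whether the strain difference depended on sex was tested with the interaction term, the strain difference in males minus that in females. It passed an adjusted p of 0.05 for 0 of 40 probes (0.0096% of all probes) and an unadjusted p of 0.05 for 0 of 40 (1.77% of all probes), with a smallest adjusted p of 0.9999 for the set in limma. Each strain held 2 mice of each sex, and the standard errors of the interaction were large. 29 of 40 probes were lower in the Nd2-mutant mean among males alone and 32 of 40 among females alone. Over all tested probes, the median strain difference was -0.02 among males alone and 0.02 among females alone. Actg2 differed by -1.27 in males and -1.18 in females, with an interaction of -0.09 (SE 0.85). For Fhl1 ILMN_2713285 the values were -0.71 and -1.50 (interaction 0.79, SE 0.63), and for Srf -0.22 and -0.93 (interaction 0.71, SE 0.38). Pdlim3 had the widest separation, 0.84 in males and -1.02 in females (interaction 1.86, SE 0.89). Its high values were those of male mouse 28 and female mouse 15.

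**Figure D5:**
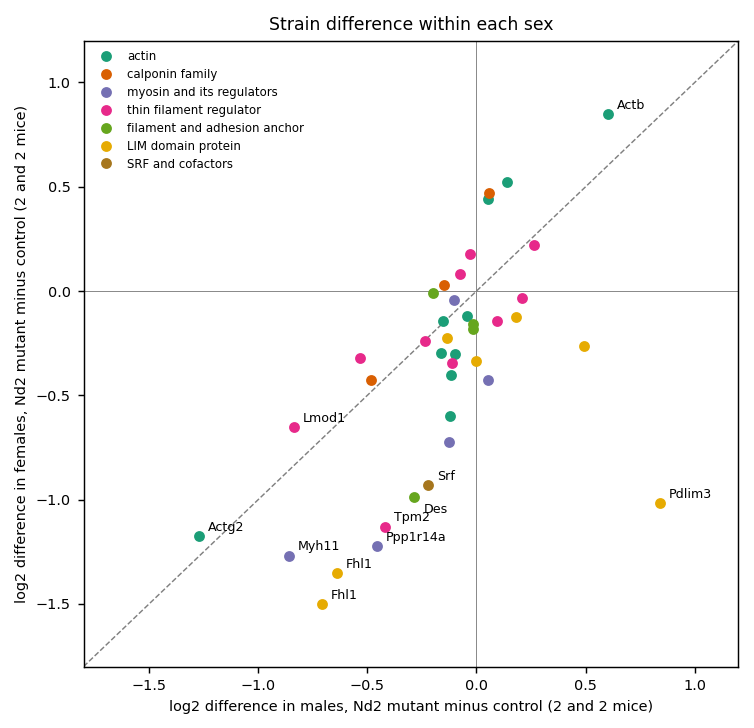
Strain difference (log2, Nd2 mutant minus control) of each tested probe among males (x axis) and among females (y axis), with 2 mice of each strain in each; colours mark the role of the gene, the dashed line marks equal differences, and probes beyond 0.8 in either sex and Srf are named. Actg2 and Lmod1 lie near the line, Fhl1, Srf, Des and Ppp1r14a below it, and Pdlim3 is positive in males and negative in females.

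Other genes of the pathway were followed with lists of genes that are not in the set. These lists were written with earlier results of these arrays known, so that their counts for strain describe and do not test. Jag1, Mrvi1, Tuft1 and Sgcd are among the genes that the authors list as lower in Nd2-mutant fibroblasts. Of 25 further MRTF and SRF targets, 21 were tested with 29 probes, of which 15 were lower and 14 higher in Nd2-mutant fibroblasts, with a median of -0.01. No probe of them passed the adjusted threshold for strain in limma (0 of 29; 8 of 29 at an unadjusted p under 0.05, beside 7.63% of all probes; smallest adjusted p 0.639), and their values went in both directions. These 8 were Acta1, Ankrd1 ILMN_2950286, Jag1, Mrvi1, Sgcd and Tuft1, all lower, and Thbs1 and Actn4 ILMN_1242390, both higher. Ankrd1 differed by -0.88 (SE 0.33) in this probe and -0.43 (SE 0.42) in its other, and Tuft1 by -0.62 (SE 0.21). The strains did not overlap for Sgcd (-0.53, SE 0.17), beside 2.13% of all probes that were lower without overlap. Sgcd was detected on 3 of 4 Nd2-mutant arrays and entered through the controls. Acta1, the skeletal alpha-actin that SRF also controls, had intensities of 469, 933, 529 and 242 in the Nd2-mutant and 755, 1198, 939 and 761 in the control mice, a difference of -0.86 (SE 0.34). Mrvi1, a relaxing factor of smooth muscle, had 16.1, 35.6, 28.3 and 16.8 in the Nd2-mutant mice and 60.4, 74.3, 54.0 and 85.4 in the control mice, without overlap, and a difference of -1.09 (SE 0.19). The Notch ligand Jag1 differed by -1.16 (SE 0.32), but it was detected on 2 of 4 Nd2-mutant and 4 of 4 control arrays and so entered the test through the controls, where it had to be high. In contrast, thrombospondin 1 (Thbs1) had 1343, 905, 1018 and 563 in the Nd2-mutant and 245, 266, 391 and 822 in the control mice, 1.22 (SE 0.37), with a single overlap of mice 35 and 37. Actn4, an alpha-actinin, differed by 0.48 (SE 0.25) and 0.40 (SE 0.23) in the 2 probes that were detected on every array. Its other probe, ILMN_1242390, at 0.83 (SE 0.36), was detected on 4 Nd2-mutant arrays and 1 control array and entered the test through the Nd2-mutant mice. Ctgf differed by -0.43 (SE 0.21) and zyxin (Zyx) by 0.11 (SE 0.14).

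A list of cofactors and other regulators of SRF and of the related stiffness response had mostly higher probes in the Nd2-mutant mean. The list was not split into genes that activate and genes that restrain, so that its direction has no single reading. Among its 14 genes, 8 were tested with 11 probes, 3 lower and 8 higher, with a median of 0.23. Elk3 ILMN_1224644 (0.36, SE 0.22) was detected on 2 of 4 control arrays and so entered the test through the Nd2-mutant mice, where it had to be high. Hipk2 (-0.28, SE 0.21) was detected on 3 of 4 Nd2-mutant arrays and entered through the controls. The probes of Klf4 differed by 0.34 (SE 0.37), 0.30 (SE 0.38) and -0.15 (SE 0.37). Wwtr1, which encodes TAZ, was at 0.41 (SE 0.15), and Yap1, its partner in sensing stiffness, at 0.08 (SE 0.13). The strains did not overlap for Wwtr1 and for the brighter Elk3 probe ILMN_3119014 (0.27, SE 0.13), which was detected on 8 of 8 arrays. Both were higher in Nd2-mutant mice, and 2.24% of all tested probes were higher without overlap. Of the 11 probes 0 passed the adjusted threshold for strain in limma, and 1 had an unadjusted p under 0.05 (Wwtr1), beside 7.63% of all probes.

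The immediate early genes, which SRF controls with TCF partners instead of MRTFs, were tested with 7 probes of 7 genes, 6 lower and 1 higher in the Nd2-mutant mean, with a median of -0.19. No probe passed for strain (0 of 7; 1 at an unadjusted p under 0.05, beside 7.63% of all probes, which was Dusp1 at -0.81, SE 0.29). Their interaction of strain and sex was positive in 7 of 7, with 4 at an unadjusted p under 0.05 (1.77% of all probes) and 0 at an adjusted one (0.0096% of all probes). Fosb had the largest, with intensities of 1598 and 1720.2 in Nd2-mutant males, 121 and 73.8 in Nd2-mutant females, 884 and 1224 in control males, and 827 and 1359 in control females. Its interaction was 3.94 (SE 0.44, adjusted p = 0.0794 in limma). The female Nd2-mutant mice 34 and 35 were the low ones in Fosb. In the set, mice 34 and 35 were the lowest 2 of the 8 mice in both probes of Mylk, in Srf and in Fhl1 ILMN_2713285, whereas mouse 34 exceeded mouse 28 in Actg2, Tagln, Myh11 and Lmod1.

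Markers of other cells that a skin culture could hold were read beside these values. The marker lists were written with earlier results of these arrays known, so that their counts for strain describe and do not test. Mcam and Cspg4, of the list that follows, are among the genes that the authors list as lower in Nd2-mutant fibroblasts. Of 8 markers of pericytes and mural cells (Des, a member, among them), 5 were detected on all arrays, and Rgs5 and Kcnj8 on none. All 7 tested probes of this list were lower in the Nd2-mutant mean (median -0.63; 0 of 7 at an adjusted and 5 of 7 at an unadjusted p under 0.05 in limma, beside 7.63% of all probes). Of these, 3 are probes of the single gene Mcam, with 105, 97.3, 94.1 and 146 in the Nd2-mutant and 462, 223, 115 and 297 in the control mice for ILMN_2955919. The strains overlapped in this probe, but not in Mcam ILMN_2614531 (-1.16, SE 0.28) and ILMN_1229960 (-1.03, SE 0.27) or in Notch3 (-0.45, SE 0.20). Of all tested probes, 2.13% were lower without overlap. The remaining probes of the list overlapped. The summed intensity of the list ran from 689 to 1229.6 in Nd2-mutant and from 769.9 to 1929.8 in control mice, with mouse 15 the highest. The 9 restricted smooth muscle markers, 7 of them members, summed to 72.1 to 167 and 144 to 344. The part of such cells in the lower values of Myh11, Lmod1, Ppp1r14a and Actg2 was not tested.

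Markers of skeletal muscle were read beside the dim probes of Des, Tpm2 and Pdlim3. Of 11 such markers 5 were detected on 0 of 8 arrays, among them Myod1, Myf5, Pax7 and Ckm, and the list summed to 344 to 1029 in Nd2-mutant and 828 to 1370.2 in control mice. Most of this sum was Acta1, given above, with 242 to 933 in Nd2-mutant and 755 to 1198 in control mice. Acta1 was highest in control mouse 16 and, among the Nd2-mutant mice, in mouse 32, and so did not share the order of those probes. Mylpf, a light chain of fast muscle, had 81.5, 40.6, 21.4 and 47.9 in the Nd2-mutant and 168, 52.2, 96.2 and 28.2 in the control mice, and Tnnc2, a fast troponin, had 54.5, 13.5, 9.52 and 21.2 in the Nd2-mutant mice and 166, 54.6, 41.5 and 11.8 in the control mice. Both were highest in mouse 15, as were Des and Tpm2 ILMN_2482209, and within the Nd2-mutant mice both were highest in mouse 28, as were Tpm2 ILMN_2482209 and Pdlim3, while Des was highest in mouse 32. The part of muscle cells in those probes was not tested.

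Macrophage, endothelial and keratinocyte markers had summed levels that overlapped between the strains. The 8 macrophage markers summed to 257 to 1467 in Nd2-mutant and 204 to 545 in control mice, with Ptprc detected on 0 arrays and the highest sum in mouse 35. Mouse 35 was also the lowest mouse for 12 of the 40 probes of the set (9.55% of all tested probes). Of their 5 tested probes 4 were higher in the Nd2-mutant mean (median 0.68; 0 at an unadjusted p under 0.05), with Lyz2 at 1.24 (SE 0.58), C1qb at 1.08 (SE 0.54) and Cd68 at 0.68 (SE 0.48). Lyz2 and C1qb were detected on 3 of 4 control arrays and Cd68 on 2 of 4. They were thus tested through the Nd2-mutant mice, where they had to be high, and the median of the list is the value of Cd68. The 6 endothelial markers summed to 99.7 to 215 and 96.2 to 493, with Kdr on 0 arrays mouse 15 the highest, and 3 of 4 tested probes lower in the Nd2-mutant mean. The 5 of 6 keratinocyte markers with a probe (Krt1 had none) summed to 195 to 1166 and 316 to 936, with 1 tested probe lower and 1 higher. Krt14 alone ran from 38.3 to 1007 in Nd2-mutant and from 199 to 812 in control mice. Genes of the myofibroblast matrix (Lox, Col5a1, Itga11, Col4a1 and Cdh11 among 8, of which Fn1 had no probe) summed to 24173 to 26552 and 21708 to 26957. Of their tested probes 3 were lower and 5 higher in the Nd2-mutant mean (0 of 8 at an adjusted p under 0.05 in limma, 1 at an unadjusted one, beside 7.63% of all probes). Their median was 0.07, beside -0.17 for the contractile set. The part of macrophages in the low values of mouse 35, and of endothelial cells in the high Myh11 value of mouse 15, was not tested.

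The pattern of Acta2, Actg2 and Tagln over the mice was taken as the mean of their standardised log2 values, with the probe of the highest mean for each gene (Cnn1 was not tested). It was -0.65, -0.20, -0.62 and -0.47 in the Nd2-mutant mice and -0.09, 0.81, 0.37 and 0.86 in the control mice. These values are set by genes chosen with the strain difference known and, for Acta2, by ILMN_2693895, which reaches the highest intensity of the table and runs against the other Acta2 probes. Among 8003 genes, the ones outside the set with the most similar pattern over the 8 mice were Ppid (r = 0.98), Ate1, Pole4, Mrpl20 and Hist1h3a (each r = 0.94), and the most opposite were Thra (r = -0.95), Sept2 (r = -0.94), Emb, Mmab and Olfml3 (each r = -0.93). These are extremes picked from all genes on 8 shared arrays and are given as a description. Within the set, Fhl1 (r = 0.88), Lmod1 (0.83), the bright Tpm2 probe (0.82) and Actb ILMN_2698799 (0.745) followed the pattern most closely besides Actg2 (0.91) and Tagln (0.75), which are part of it, while Acta2 itself, through ILMN_2693895, did so at r = 0.17. Myh11 stood at 0.44 over 8 mice and at 0.76 without mouse 15, Srf at 0.63, and Pdlim3 (-0.24) and Csrp2 (-0.14) ran slightly against it.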

How the data were processed

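RNA of primary skin fibroblasts of 8 mice was labelled and hybridised by the authors to 1 MouseRef-8 v2.0 array per mouse. The deposited intensities had been extracted in GenomeStudio, quantile normalised and background subtracted by the authors, and are not logarithmic. Beside each intensity the authors deposited a p-value of detection, which sets the probe against negative control beads. The 2 deposited tables were identical, so that no other normalisation could be tried. Quantile normalisation gives all arrays nearly the same distribution, and values are thus relative to the other probes of an array.

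Intensities below 0 were set to 0, 16 was added and log2 taken. A probe was tested where its detection p was below 0.01 on all 4 arrays of at least 1 strain. limma 3.58.1 in R 4.3.3 was fitted to all 10414 such probes, with Benjamini-Hochberg adjustment over them and strain, then strain and sex, then their interaction as terms. The script was tested on simulated data. Each probe was fitted separately. Summed intensities of marker lists take the probe of the highest mean per gene, serve to set mice side by side and say nothing about amounts of different transcripts. The smooth muscle enriched members, Srf, Actb and any member probe without overlap of the strains or with an unadjusted p under 0.05 were named with all values, the rest by ranges. One list of pathway genes is not reported here. The members and lists were chosen with earlier results of these data known. Mice are separate animals, and the labels and file give no chip, so that a chip effect could not be examined. Alternatives were another added value, the linear scale, other filters, median centring, eBayes with trend, array weights, sex as a term, each sex alone, 1 value per gene, the methods' t-test, and leaving out each mouse.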

Additional observations from a re-analysis of the deposited data

Results flagged for a closer look

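In each strain, the mouse at either end of the 4 was compared with its nearest neighbour for the 40 tested probes, as the gap between them divided by the whole range (80 groups in all). Dixon's critical value was passed in 3 groups, where about 4 are passed by chance, 1 in 20. Acta2 ILMN_2710353 was low in Nd2-mutant mouse 35 (ratio 0.8884). Cald1 ILMN_1232081 was low in control mouse 15 (ratio 0.8954), and Pdlim3 ILMN_2885990 was high in the same mouse (ratio 0.9151).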

How the results depend on the processing

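No paired analysis was possible because the mouse numbers are not shared between the strains. Over all tested probes, the count that passed an adjusted p of 0.05 for strain was 0 with limma (795 at an unadjusted p under 0.05), 3 with no filter and 1 with the methods' t-test, and 0 under every other alternative run. The number of probes at an unadjusted p under 0.05 for strain moved between 436 (without control mouse 16) and 1467 (without control mouse 17), when single mice were left out, with 474 without Nd2-mutant mouse 28, and no filter gave 1587. The count of members with an adjusted p under 0.05 for sex or for the interaction was 0 under every alternative run. The median of the members, -0.17, lay between -0.28 (females alone) and -0.11 (males alone) over the alternatives, and between -0.22 and -0.12 with 1 mouse left out; on the linear scale no such median was taken. Of the 40 member probes, 24 had the same sign of the strain difference under every setting and 16 did not. Member probes lower without overlap of the strains were 2 (2.13% of all tested probes), and 5 without control mouse 15 (4.2% of all tested probes). With any other mouse left out, this count was not set beside that of all probes and is not given. The cause of these changes was not tested. Dim probes such as those of Myh11, Lmod1 and Ppp1r14a lie close to the background, where the added value sets the size of a difference.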
